A study of Homo sapiens with 6 samples.

Results

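The genes described here are 9 of the 60662 genes in the deposited count table. They comprise the laminin chain genes LAMA3, LAMB3, LAMA5, LAMB1 and LAMC1 and the hemidesmosome genes COL17A1, DST, PLEC and CD151. They were selected by gene symbol, with results of the comparison below already known, so the differences between groups in these 9 genes are given as a description and without p-values. RNA came from the prostate cancer line DU-145, which stably carried the vector tet-MUCshRNA, from which tetracyclines induce a short hairpin RNA against MUC1. The DOX-negative group (3 libraries) received vehicle and the DOX-positive group (3 libraries) received doxycycline (DOX), each for 7 days. Per the series' design text the cells were also stimulated for 24 hours with 10 ng/ml IFN-gamma (type II interferon), which both groups share. The hairpin vector is likewise common to both, and no cells with a control hairpin or without IFN-gamma were analysed here, so effects of DOX itself and of the hairpin cannot be told apart. The labels do not say whether the line was 1 clone or a pool. They speak of triplicate cultures without naming separate days, so the spread between libraries may be technical.

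MUC1, the target of the hairpin, read 20.4, 21.8 and 22.2 CPM (counts scaled to library size, here with TMM factors) in the DOX-negative libraries. It read 1.53, 1.31 and 1.32 CPM in the DOX-positive libraries, so the labels and the target gene go together. Library totals ranged from 87739734 to 150921436 reads, and a count of 3 reads, the limit that a count of 0 allows, equalled 0.0204 to 0.0328 CPM. In DU-145 the epithelial markers EPCAM, CDH1, KRT8, KRT18 and KRT19 summed to between 813.1 and 863.6 CPM in DOX-negative and between 2261 and 2350 CPM in DOX-positive libraries, and 5 of 5 were called higher. The prostate luminal markers KLK3, KLK2 and TMPRSS2 were at or near 0 and summed to at most 0.131 CPM in any library. The basal markers TP63, KRT5 and KRT14 were also at or near 0 and summed to at most 0.164 CPM in any library. Leukocyte markers (4 genes, 1 called lower) summed to at most 1.12 CPM, endothelial markers (3 genes) to at most 0.436 CPM and fibroblast markers (4 genes, 2 called lower) to at most 7.37 CPM, most of it COL1A1. Of all genes tested by edgeR, 27.6% were called higher and 28.9% lower (adjusted p under 0.05). The part of the epithelial markers in the results below was not tested. In RNA from whole cultures, fewer cells that express a gene and less RNA per cell cannot be told apart.

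Laminins are secreted trimers of 1 alpha, 1 beta and 1 gamma chain that build the basement membrane, and each trimer is named by the numbers of its chains. Laminin-332, which contains the products of LAMA3 and LAMB3, is the main ligand of hemidesmosomes, the plaques that tie the keratin filaments of basal epithelial cells to the basement membrane. In a hemidesmosome the integrin alpha-6 beta-4 (ITGA6 and ITGB4) and the transmembrane collagen XVII (COL17A1) bind outside the cell, the tetraspanin CD151 associates with the integrin, and the plakins plectin (PLEC) and dystonin (DST) connect to keratins. Laminin-511 and laminin-521, which share the products of LAMA5 and LAMC1 and differ in the beta chain (LAMB1 or LAMB2), are widespread in epithelial basement membranes. In the prostate, hemidesmosomes belong to the basal cell layer, and loss of the basal layer and of its laminin-332 is a known feature of prostate carcinoma.

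Among the 9 genes, edgeR called 7 higher and 2 lower in the DOX-positive group (adjusted p under 0.05), and log2 fold changes are given as DOX-positive over DOX-negative. Of all 24695 genes tested, 27.6% were called higher and 28.9% lower. The same 7 and 2 genes had groups that did not overlap in CPM, a separation that 29.8% of all tested genes showed upward and 32.6% downward. The comparison helped to choose the members, so nothing is read from these counts. All 9 passed the filter on low counts, and the median log2 fold change of the 9 was 0.80 against -0.04 over all genes tested. Scaling by library size alone moved the median of all genes by -0.14 on the log2 scale and changed the split over all genes from 6825 higher and 7132 lower to 4689 and 9579. Small differences therefore depend on the scaling.

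**Figure D1:**
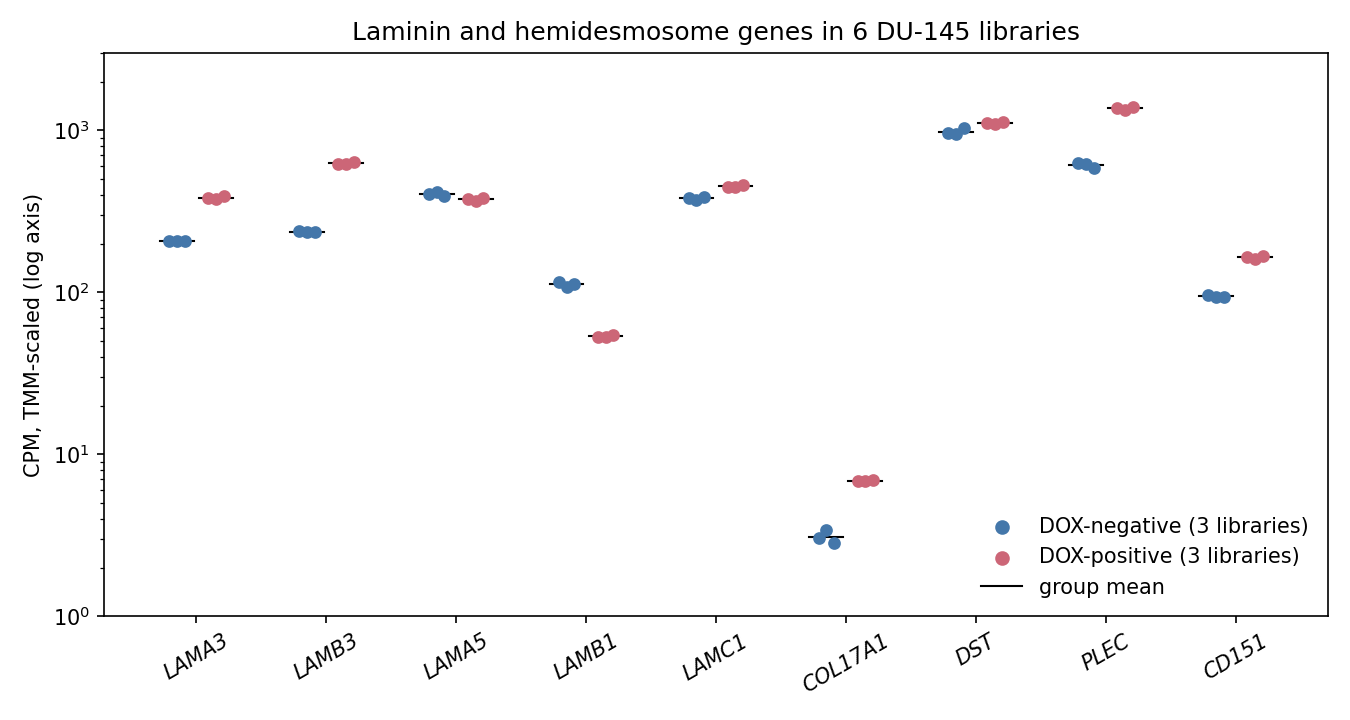
Level of each of the 9 genes in each library, as CPM on a log axis, with DOX-negative libraries in blue, DOX-positive libraries in red and a black line at each group mean (3 libraries each). LAMA3, LAMB3, COL17A1, PLEC and CD151 sit clearly higher in DOX-positive libraries, LAMB1 sits lower, and LAMA5, LAMC1 and DST lie close together in the 2 groups.

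LAMB3 encodes the beta chain that is specific to laminin-332 (ENSG00000196878.15, chromosome 1, 209614870 to 209652466, minus strand, GRCh38). It read 238.0, 236.0 and 235.2 CPM in DOX-negative libraries and 623.5, 617.3 and 641.8 CPM in DOX-positive libraries. Every DOX-positive library lay far above every DOX-negative one, and the means of 236.4 ± 1.41 and 627.5 ± 12.8 CPM (SD, n = 3 each) differed 2.65-fold (a log2 fold change of 1.41 ± 0.03 SE). LAMA3, the alpha chain of the same trimer (ENSG00000053747.16, chromosome 18, 23689443 to 23956222, plus strand), read 207.3, 207.4 and 207.2 CPM in DOX-negative libraries and 383.4, 374.6 and 391.7 CPM in DOX-positive libraries. The 3 DOX-negative values were almost identical and the groups did not overlap. The DOX-negative spread was below the counting error of 20606, 30434 and 18966 reads, so its SD understates the error. The means, 207.3 ± 0.0890 and 383.2 ± 8.59 CPM, differed 1.85-fold (a log2 fold change of 0.89 ± 0.03 SE). LAMB3 was thus further apart between the groups than LAMA3, and the ratio of LAMB3 to LAMA3 reads, which needs no scaling between libraries, was 1.15, 1.14 and 1.14 in DOX-negative libraries and 1.63, 1.65 and 1.64 in DOX-positive ones.

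The promoter windows of LAMA3 and LAMB3 are shown because these members were higher together and because theirs were the only windows among the members to hold the AP-1 motif. AP-1 is the dimer of FOS and JUN family proteins. RefSeq (GRCh38.p14) gave windows for 7 of the 9 genes, 11 windows in all, and none for PLEC or CD151. In the 250 bases before each start, TGANTCA (AP-1, a palindrome, so both strands are covered) was found in 2 of the 11 windows, and 6.57% of all 35116 windows hold it. The LAMA3 window belongs to a start 183577 bases inside the gene, and the LAMB3 window with the match to a start 1092 bases inside its gene. The LAMB3 windows at starts 41 and 137 bases inside the gene held no AP-1 match. GENCODE 29 exons on the same strand cover 180 of the 250 bases of the LAMA3 window and 20 of those of the LAMB3 window with the match. The 3 matches are printed 5′ to 3′ on the gene's strand with 11 bases on either side and the motif in capitals.
LAMA3, chr18:23872884-23872912: ctggcacaggcTGACTCAtgtgtgaagtt
LAMA3, chr18:23872940-23872968: ccttcctcaccTGAGTCAggcaggcccgg
LAMB3, chr1:209651424-209651452: gtcagccactcTGACTCAttcactttggg
The second LAMA3 match begins 69 bases before its start and the LAMB3 match 67 bases before its start, while the first LAMA3 match lies 125 bases before. The counts are per gene, so they do not show which start was used in these cells.

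The other windows differed in the GC box, GGGCGG on either strand, which 42.6% of all windows hold. LAMA5 had 5 matches, LAMB1 had 4, of which a pair overlap, and LAMC1 had 3, and none of these windows held the AP-1 motif. The window of LAMA5, which held the most GC boxes, is printed with them in capitals and had a GC content of 82.8%.
LAMA5, chr20:62367313-62367562, minus strand: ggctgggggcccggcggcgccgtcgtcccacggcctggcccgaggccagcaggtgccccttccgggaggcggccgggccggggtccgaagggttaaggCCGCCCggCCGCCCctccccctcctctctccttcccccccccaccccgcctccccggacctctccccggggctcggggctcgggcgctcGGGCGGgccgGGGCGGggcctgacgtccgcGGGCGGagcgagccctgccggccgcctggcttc
The LAMA3 window had a GC content of 60.4% and the LAMB3 window with the AP-1 match 54%, each with 1 GC box. The LAMB3 windows without the AP-1 motif also held 1 GC box each. COL17A1 had no match to either motif in its window, and DST had 4 GC boxes at the first of its 3 starts. LAMC1, COL17A1 and DST, with no AP-1 match in any window, were also higher in DOX-positive cells. The E-box CACCTG, on either strand, was in 3 of the 11 and in 17.5% of all windows. A match is a description of the letters and not a measured binding site.

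**Figure D2:**
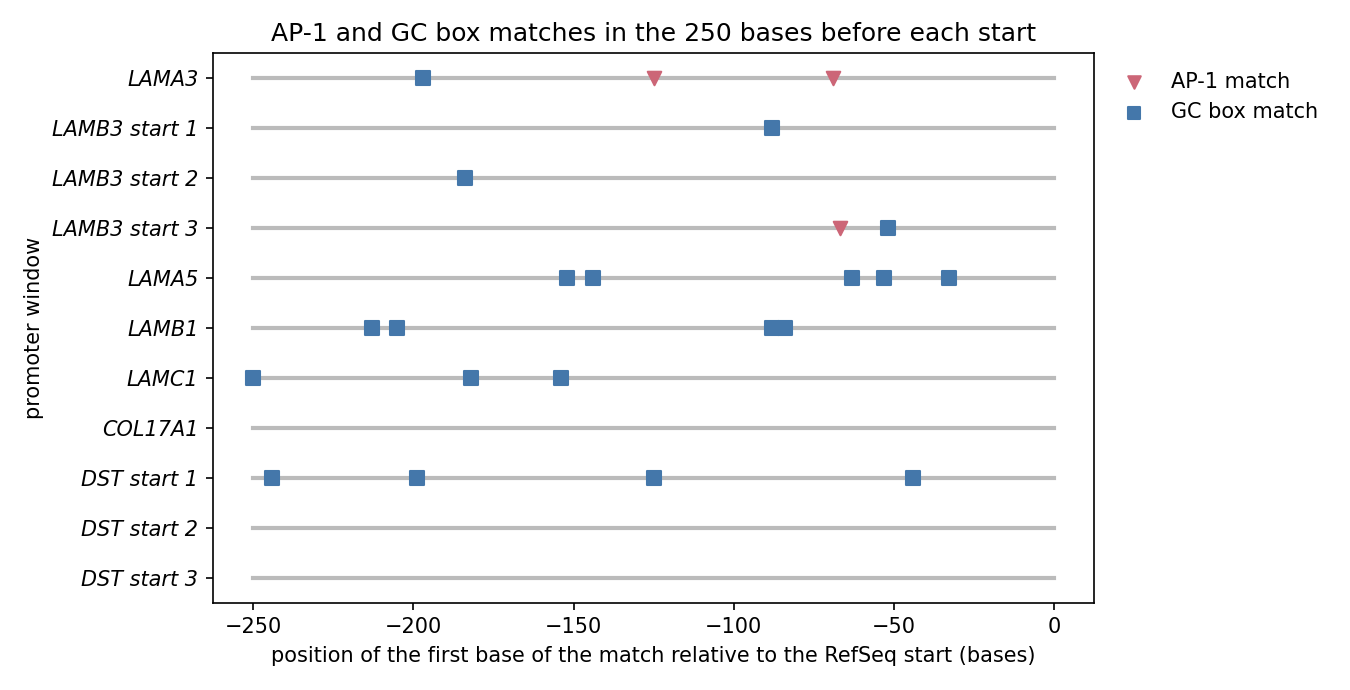
Matches to AP-1 (red triangles) and to the GC box (blue squares) in the 250 bases before each RefSeq start, with the distance to the start in bases on the horizontal axis and 1 line per window of the 7 genes that have one. The 3 AP-1 matches fall in LAMA3 (125 and 69 bases before the start) and at the third LAMB3 start (67 bases before), and LAMA5, LAMB1 and LAMC1 hold GC boxes only.

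The chains of laminin-511 did not share one direction. LAMB1, its beta chain (ENSG00000091136.14, chromosome 7, 107923799 to 108003255, minus strand), read 115.4, 107.7 and 112.2 CPM in DOX-negative libraries and 53.3, 53.1 and 54.8 CPM in DOX-positive libraries. All DOX-positive values lay below all DOX-negative ones, and the means of 111.8 ± 3.89 and 53.7 ± 0.898 CPM were 2.08-fold apart (a log2 fold change of -1.06 ± 0.03 SE). LAMB1 overlaps DLD, a metabolic enzyme gene on the opposite strand, by 7932 bases. DLD was at 95.8 CPM in DOX-negative and 131.7 CPM in DOX-positive cells, the opposite direction, and how the authors' counting treated strand is not given in the sources used here.

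LAMA5, the alpha chain of both laminin-511 and laminin-521 (ENSG00000130702.15, chromosome 20, 62307955 to 62367312, minus strand), read 402.6, 414.2 and 391.2 CPM in DOX-negative libraries. In DOX-positive libraries it read 378.6, 368.3 and 383.7 CPM. The groups were separate by a narrow margin, with a log2 fold change of -0.10 ± 0.03 SE, and with this scaling LAMA5 was the member closest to no difference. DST was closer to 0 with upper-quartile scaling (0.12 against -0.16 for LAMA5) and with library size alone (0.04 against -0.24). The call of LAMA5 was lost with DESeq2 size factors, with the Wald test of DESeq2, and without DOX-negative replicate 1 or 3, or DOX-positive replicate 1 or 2. LAMA5 overlaps ADRM1 on the opposite strand by 908 bases, and ADRM1 was at 46.9 CPM in DOX-negative and 56.9 CPM in DOX-positive cells.

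LAMC1, the gamma chain that most laminins share (ENSG00000135862.6, chromosome 1, 183023460 to 183145592, plus strand), read 382.5, 371.9 and 386.1 CPM in DOX-negative libraries. It read 448.3, 447.3 and 458.5 CPM in DOX-positive libraries, where all 3 values were higher. The difference was 1.19-fold (a log2 fold change of 0.25 ± 0.03 SE), and 0.10 on the log2 scale with library size alone. Within a library, LAMA3 had 0.515, 0.501 and 0.530 reads per LAMA5 read in DOX-negative and 1.01, 1.02 and 1.02 in DOX-positive libraries. LAMB3 had 2.06, 2.19 and 2.10 reads per LAMB1 read in DOX-negative and 11.7, 11.6 and 11.7 in DOX-positive libraries, a change of 5.52-fold in a ratio that does not depend on library scaling.

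To set the chains beside each other, CPM were divided by the deposited gene length in kilobases and expressed as shares of all alpha or all beta chain levels in the library. LAMA3 held 29.1% ± 0.420 of the alpha chain level in DOX-negative cells and 46.0% ± 0.247 in DOX-positive cells (SD, n = 3 each), while LAMA5 held 57.9% ± 0.801 and 46.5% ± 0.218. LAMA1, the alpha chain typical of early embryonic basement membranes, held 12.6% ± 0.375 and 6.98% ± 0.338. With these lengths LAMA5 alone led the alpha chain level in DOX-negative libraries. In DOX-positive libraries the ranges of LAMA3 and LAMA5 overlapped, with LAMA5 slightly above LAMA3 within each library. LAMA3 also has a start far inside the gene, as given above, and a shorter transcript would raise its level per kilobase. Counts per gene do not show which transcript was used, so the order of LAMA3 and LAMA5 is not settled. Among beta chains, LAMB3 held 54.7% ± 0.210 in DOX-negative and 83.7% ± 0.115 in DOX-positive cells. LAMB2 went from 30.5% ± 0.312 to 12.1% ± 0.116 and LAMB1 from 14.9% ± 0.426 to 4.13% ± 0.0177. With the length of the longest GENCODE 29 transcript in place of the deposited length, LAMA3 held 30.3% and 47.7%, and LAMB3 50.6% and 81.5%. LAMA5 then held 54.8% and 43.8%, so that LAMA3 lay above LAMA5 in all 3 DOX-positive libraries.

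**Figure D3:**
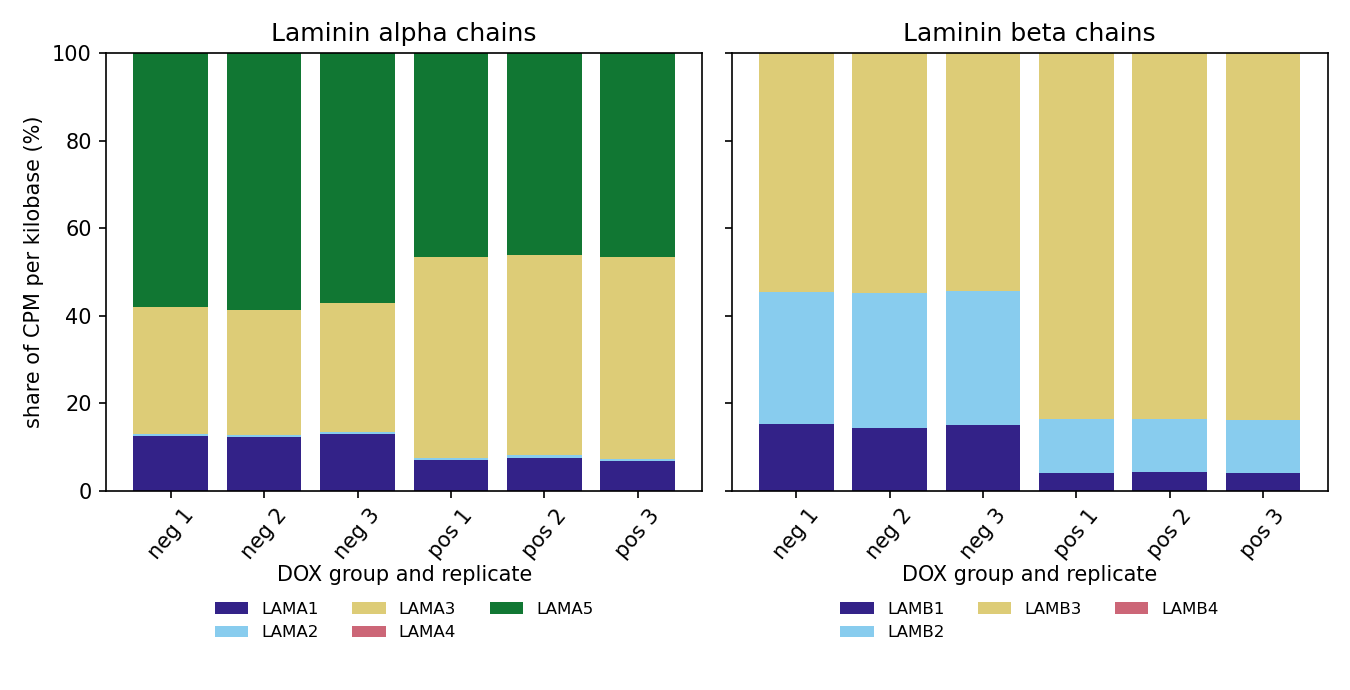
Share of each laminin chain in the summed CPM per kilobase of all alpha or all beta chains (vertical axis, percent), with 1 bar per library labelled by DOX group and replicate. LAMA3 and LAMB3 take a larger part of the bar in the DOX-positive libraries (46.0% and 83.7% on average) than in the DOX-negative ones (29.1% and 54.7%).

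Related lists, here and below, were also chosen with earlier results of these data known, and genes were named mainly by lowest p. Their counts and adjusted p-values are therefore given as a description. Of 6 laminin chains outside the 9 genes, 4 were tested, with 1 higher and 3 lower at an edgeR adjusted p under 0.05. Their median log2 fold change was -0.58. Over all genes tested, 27.6% were called higher and 28.9% lower. LAMC3, a gamma chain with restricted expression, fell from 9.66 ± 0.441 to 2.15 ± 0.299 CPM (a log2 fold change of -2.16 ± 0.10 SE, adjusted p = 1.14e-11 by edgeR). LAMA1 fell from 97.2 ± 1.77 to 62.8 ± 1.98 CPM (a log2 fold change of -0.63 ± 0.03 SE, adjusted p = 7.63e-11 by edgeR). LAMB2, the beta chain of laminin-521, fell from 194.6 ± 0.762 to 134.3 ± 1.98 CPM (a log2 fold change of -0.53 ± 0.03 SE, adjusted p = 2.82e-10 by edgeR). LAMA2, the alpha chain of muscle and nerve, rose from 1.87 ± 0.169 to 3.38 ± 0.489 CPM (a log2 fold change of 0.86 ± 0.13 SE, adjusted p = 3.4e-05 by edgeR). LAMA4 and LAMB4 were too low to be tested. Both beta chains that pair with LAMA5 and LAMC1 in the trimers named above, LAMB1 and LAMB2, were thus lower in DOX-positive cells.

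Turning to the hemidesmosome, PLEC encodes plectin, the plakin that links integrin beta-4 to keratin filaments (ENSG00000178209.15, chromosome 8, 143915147 to 143976734, minus strand). It read 628.2, 621.6 and 589.0 CPM in DOX-negative libraries and 1375, 1331 and 1388 CPM in DOX-positive libraries. The groups lay far apart, with means of 612.9 ± 21.0 and 1365 ± 29.9 CPM and a 2.23-fold difference (a log2 fold change of 1.15 ± 0.03 SE). DST, which encodes dystonin, whose epithelial isoform is the plaque protein BPAG1e (ENSG00000151914.20, chromosome 6, 56457987 to 56954628, minus strand), read 959.9, 944.7 and 1037 CPM in DOX-negative libraries. In DOX-positive libraries it read 1108, 1095 and 1131 CPM. These values lay above the DOX-negative ones but only 1.13-fold on average (a log2 fold change of 0.18 ± 0.03 SE), and the log2 fold change was 0.04 with library size alone, where DST was no longer called. Gene counts pool the epithelial, neuronal and muscle isoforms of DST, so the level of the epithelial isoform is not known from them.

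By read count, which is not a level per length, DST was above PLEC in DOX-negative libraries and PLEC above DST in DOX-positive ones. PLEC had 0.654, 0.658 and 0.568 reads per DST read in DOX-negative libraries and 1.24, 1.22 and 1.23 in DOX-positive libraries. DOX-negative replicate 3 held both the lowest PLEC and the highest DST value of its group. Without it the log2 fold change of DST was 0.24. Per kilobase of deposited gene length PLEC was above DST in both groups (36.1 against 20.5 CPM per kilobase in DOX-negative cells). With the longest GENCODE 29 transcript PLEC was below DST in DOX-negative cells (40.2 against 43.7) and above it in DOX-positive cells (89.5 against 49.5 CPM per kilobase).

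COL17A1, the transmembrane collagen of hemidesmosomes (ENSG00000065618.21, chromosome 10, 104031286 to 104085957, minus strand), was by far the lowest member. It read 3.03, 3.39 and 2.83 CPM in DOX-negative libraries, from 301, 498 and 259 reads, and 6.81, 6.86 and 6.96 CPM in DOX-positive libraries, from 718, 991 and 690 reads. The groups did not overlap and differed 2.23-fold (a log2 fold change of 1.15 ± 0.09 SE), with a larger error than for any other member. Its fold change was the same as that of PLEC to 3 digits, although its level per kilobase was 0.984 ± 0.0112 against 80.3 ± 1.76 CPM per kilobase for PLEC in DOX-positive cells. CD151, the tetraspanin that binds laminin-binding integrins (ENSG00000177697.19, chromosome 11, 832843 to 839831, plus strand), read 96.2, 94.1 and 93.5 CPM in DOX-negative and 165.8, 159.6 and 167.3 CPM in DOX-positive libraries. All DOX-positive values were higher, with a 1.74-fold difference (a log2 fold change of 0.80 ± 0.03 SE). CD151 overlaps POLR2L on the opposite strand by 2476 bases, and POLR2L was at 45.7 and 52.2 CPM in the 2 groups.

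Ordered by level per kilobase of deposited gene length, LAMB3 led in DOX-negative cells at 50.9 ± 0.303 CPM per kilobase. It was followed by LAMC1 (45.0 ± 0.874), PLEC (36.1 ± 1.23), LAMA5 (28.2 ± 0.804), CD151 (24.3 ± 0.364) and DST (20.5 ± 1.03), all in CPM per kilobase. LAMA3 (14.1 ± 0.00606) and LAMB1 (13.8 ± 0.482) came next and did not differ beyond the spread of the libraries, and COL17A1 was last at 0.441 ± 0.0409 CPM per kilobase. In DOX-positive cells LAMB3 led again at 135.0 ± 2.75 CPM per kilobase, and PLEC (80.3 ± 1.76) had passed LAMC1 (53.4 ± 0.736). CD151 stood at 42.2 ± 1.05. LAMA5 (26.4 ± 0.548) and LAMA3 (26.1 ± 0.586) overlapped across libraries with these lengths, with LAMA5 slightly above LAMA3 within each library. DST (23.2 ± 0.378), LAMB1 (6.66 ± 0.111) and COL17A1 completed the order. The deposited lengths count bases that no single transcript holds: for DST the length was 47883 bases against 22431 for the longest GENCODE 29 transcript, and for CD151 3894 against 1857. With transcript lengths CD151 and DST moved up to 50.9 and 43.7 CPM per kilobase in DOX-negative cells, so their places in the order depend on the length used. The order of LAMA3 and LAMA5 in DOX-positive cells does too, since with transcript lengths LAMA3 (35.9 ± 0.806) lay above LAMA5 (33.0 ± 0.685 CPM per kilobase) without overlap. Both lengths of LAMA3 may exceed that of the transcript used in these cells, which counts per gene do not show.

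Receptors for laminins and the tetraspanins around them were mostly higher. Of 14 such genes tested, 10 rose, 3 fell and 1 was not called, and the median log2 fold change was 0.63. CD81, named after its value was seen, rose least of the 10 (a log2 fold change of 0.08 ± 0.03 SE, adjusted p = 0.0448 by edgeR). The number called higher was 9 with upper-quartile scaling, with library size alone and when genes had to reach 1 CPM in 3 libraries. Over all genes tested, 27.6% were called higher and 28.9% lower. ITGA6, the alpha subunit of the hemidesmosomal integrin, read 210.6, 198.4 and 204.3 CPM in DOX-negative and 370.4, 380.2 and 381.1 CPM in DOX-positive libraries (a log2 fold change of 0.88 ± 0.03 SE, adjusted p = 1.03e-12 by edgeR). Its partner ITGB4 read 116.9, 113.8 and 112.8 CPM in DOX-negative and 197.5, 194.5 and 207.5 CPM in DOX-positive libraries (a log2 fold change of 0.80 ± 0.03 SE, adjusted p = 6.99e-12 by edgeR). The 2 subunits thus rose by 1.85-fold and 1.75-fold, beside 1.74-fold for their associate CD151. The largest rise of the list was in ITGA2, the alpha subunit of a collagen and laminin receptor, which went from 331.2 ± 18.5 to 1558 ± 42.7 CPM (4.71-fold, edgeR adjusted p = 1.29e-16). ITGB1, the common beta-1 subunit, rose 1.68-fold and the tetraspanin CD63 1.76-fold. The 3 that fell, named after their values were seen, were ITGA7 (log2 fold change -0.57), BCAM (-0.46) and DAG1 (-0.16). BCAM is a receptor for laminins that contain LAMA5, and DAG1 encodes dystroglycan.

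Plakins and keratins were also mostly higher, with 6 of 7 tested genes higher, 1 lower and a median log2 fold change of 0.67. The shares over all genes tested were 27.6% higher and 28.9% lower. MACF1, a plakin related to dystonin, rose 1.59-fold from 433.1 ± 12.7 to 688.4 ± 9.98 CPM, and PPL, which encodes periplakin, rose 1.44-fold. The simple-epithelium keratins KRT8 and KRT18 rose 2.61-fold and 2.26-fold, from 357.2 ± 19.6 and 174.6 ± 3.79 CPM. Both are also counted among the epithelial markers above. EVPL, which encodes envoplakin and was named after its value was seen, was the 1 lower gene, with a log2 fold change of -0.13 ± 0.05 SE (adjusted p = 0.0244 by edgeR). It lost its call with DESeq2 size factors, with the Wald test of DESeq2, and without DOX-negative replicate 1 or 2 or DOX-positive replicate 2 or 3. KRT5 and KRT14, the basal keratins to which hemidesmosomes attach in stratified epithelium, were at 0 or near it in all 6 libraries. KRT15, another keratin of basal cells, named after its value was seen, was low but rose from 0.885 ± 0.0391 to 3.30 ± 0.100 CPM (3.73-fold, edgeR adjusted p = 1.99e-09).

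Other basement membrane genes went more often down than up. Of 16 tested, 4 rose, 9 fell and 3 were not called, and the median log2 fold change was -0.32. Over all genes tested, 27.6% were called higher and 28.9% lower, so the part that rose was near that of all genes. FREM2, a component of epithelial basement membranes, fell from 13.2 ± 0.800 to 5.34 ± 0.297 CPM (a log2 fold change of -1.31 ± 0.07 SE, adjusted p = 9.3e-11 by edgeR). NID1, which encodes nidogen-1, the linker between laminin gamma-1 and collagen IV networks, fell from 59.3 ± 1.65 to 31.5 ± 0.410 CPM (a log2 fold change of -0.91 ± 0.03 SE, adjusted p = 9.84e-13 by edgeR). COL4A1, a collagen IV chain, fell from 61.7 ± 1.04 to 39.2 ± 0.840 CPM (a log2 fold change of -0.65 ± 0.03 SE, adjusted p = 3.56e-11 by edgeR). NTN4, a laminin-related netrin that binds laminin gamma-1, rose from 124.3 ± 4.35 to 215.2 ± 9.08 CPM (a log2 fold change of 0.79 ± 0.04 SE, adjusted p = 2.89e-11 by edgeR). The others that rose, named after their values were seen, were NID2, COL15A1 and HSPG2. NID2, the other nidogen gene of the list, rose 2.01-fold, opposite to NID1. COL15A1 was low and had the largest change of the list, from 0.0603 to 1.08 CPM (a log2 fold change of 4.098). HSPG2 rose little (a log2 fold change of 0.114).

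Enzymes that process laminin-332 or release the ectodomain of collagen XVII were split, with 3 of 7 tested genes higher, 3 lower and 1 not called, and a median log2 fold change of 0.07. The shares over all genes tested were 27.6% higher and 28.9% lower. MMP14, a membrane metalloproteinase, rose 1.62-fold, from 81.2 ± 1.60 to 131.1 ± 2.69 CPM (edgeR adjusted p = 1.97e-11). ADAM9, a sheddase, rose 1.46-fold to 923.2 ± 14.8 CPM, and FURIN, a proprotein convertase, rose 1.29-fold to 101.8 ± 2.14 CPM. BMP1, a protease that processes the chains of laminin-332, fell from 69.7 ± 1.54 to 50.9 ± 1.10 CPM (a log2 fold change of -0.45 ± 0.03 SE, adjusted p = 2.88e-09 by edgeR). TLL2, named after its value was seen, was low and only just called lower, at 2.95 ± 0.0337 and 2.42 ± 0.230 CPM. Its log2 fold change was -0.29 ± 0.12 SE (adjusted p = 0.047 by edgeR). The number called lower was 2 in place of 3 with DESeq2 size factors, the Wald test of DESeq2, no filter and the replicate block.

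**Figure D4:**
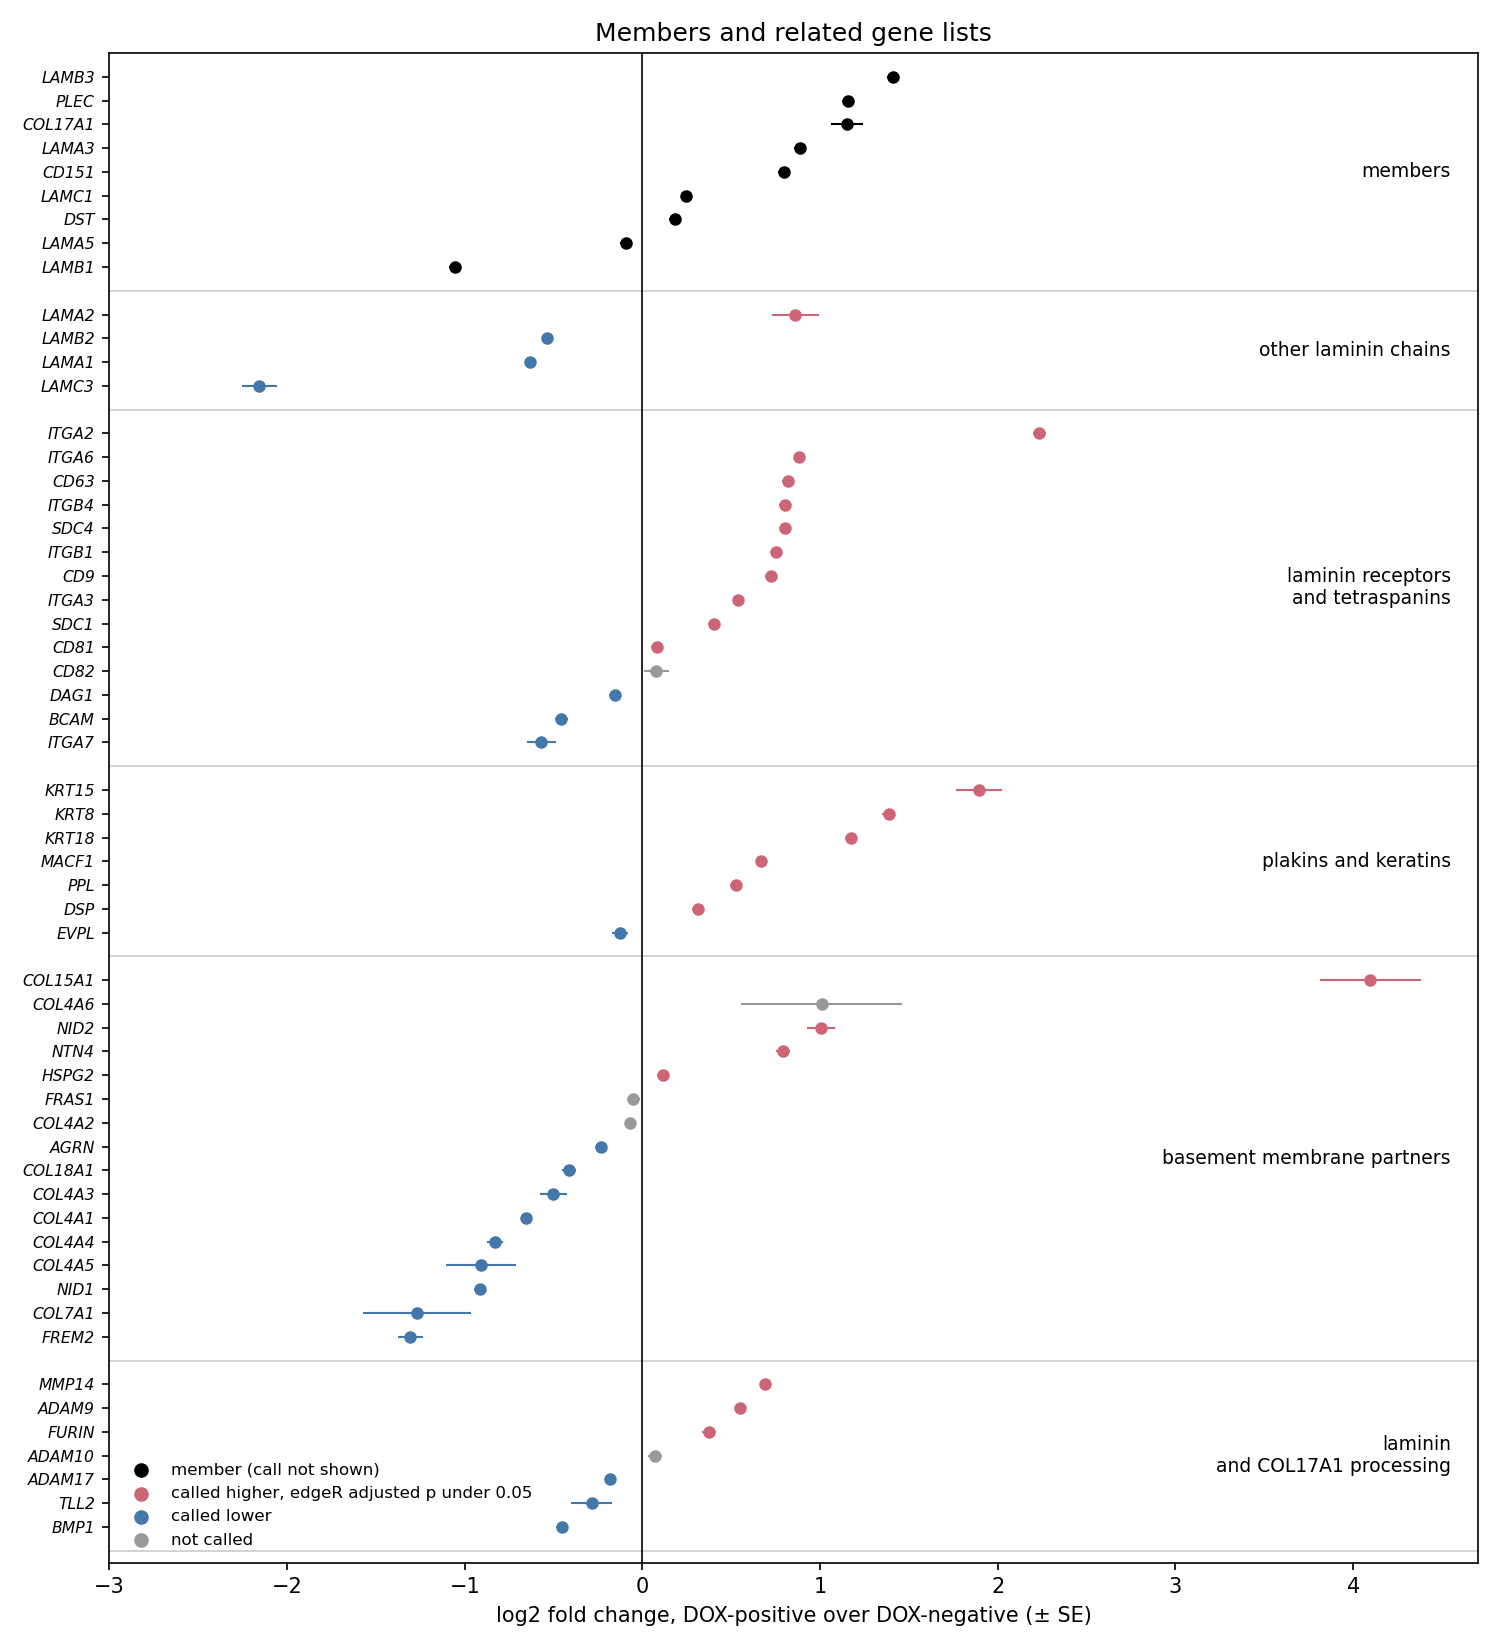
Log2 fold change of DOX-positive over DOX-negative cells with its standard error for the 9 genes (black, calls not shown) and for the tested genes of 5 related lists, coloured red where called higher, blue where called lower and grey where not called at an edgeR adjusted p of 0.05. Receptors, plakins and keratins lie mostly to the right of 0 and basement membrane partners mostly to the left, with LAMC3 at -2.16 as the lowest of the other laminin chains.

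The genes whose profile over the 6 libraries lay closest to the mean of LAMA3 and LAMB3 were sought among 9761 other genes with a mean of at least 10 CPM. The measure was the root mean square distance of log2 CPM, centred on the DOX-negative mean. PIP4K2C, a phosphoinositide kinase, was nearest at 0.014 on the log2 scale and read 79.3 ± 1.11 and 177.0 ± 5.06 CPM in the 2 groups. It was followed by DENND1C, an exchange factor for Rab proteins (distance 0.020), PRSS23, a serine protease (0.020), FA2H, a fatty acid hydroxylase (0.021), and RBMS2, an RNA-binding protein (0.022). Their fold changes ran from 2.18 to 2.31, between the 1.85-fold of LAMA3 and the 2.65-fold of LAMB3. They therefore follow the mean of the 2 genes rather than either gene. Since the 6 libraries fall into 2 groups, genes with an equal fold change score as alike.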

How the data were processed

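RNA from 6 DU-145 cultures was made into stranded poly(A) libraries (TruSeq Stranded mRNA, per the labels' protocols). The authors deposited 1 table of whole-number read counts per gene and library, not normalized, beside each gene's length. Per the submitters' processing notes the build was GRCh38.p7 and the tools included STAR 2.7.9a, CASAVA 1.8.2 and DESeq2 1.24.0, whose roles are not stated. How reads were counted, on which annotation and with which strand setting, is not given in the sources used here. Rows without a symbol (66) held 0.000516% of reads.

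Groups and replicate numbers came from the sample titles. Members and lists were chosen with earlier results of these data known. The quasi-likelihood test of edgeR 4.0.16 (R 4.3.3) was fitted to all 24695 genes left by filterByExpr (minimum count 10, minimum total 15), with TMM scaling and group as the only term. Benjamini-Hochberg adjustment ran over all genes tested (threshold 0.05). The standard error (SE) is the size of the log2 fold change over the square root of F. Genes named were the 9 members, MUC1, ITGA6, ITGB4, the 4 genes per list with the lowest p, and the 5 nearest profiles. Cell type markers were also named, as were DLD, POLR2L and ADRM1, which overlap members and were chosen after their values were seen. The rest were some list genes too low to be tested, and those marked as named after their values were seen. Chi-square per degree of freedom between libraries was 6.40 to 20.8 within groups, so no libraries agreed within sampling noise. The limit that a count of 0 allows covers counting error only. Positions are from GENCODE 29 (GRCh38), matched by gene ID for 58489 of 60662 genes, and promoter windows from RefSeq (GRCh38.p14). Alternatives were 3 other scalings, 2 other filters, DESeq2 1.42.0, limma-voom (limma 3.58.1), the replicate number as a block, each library left out, and another length. Some genes and a motif of the planned lists are not reported here. The check of replicate numbers found no pairing by number, and pairing under other numbers was not tested. Figures were drawn with matplotlib 3.10.9.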

Additional observations from a re-analysis of the deposited data

How the results depend on the processing

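Over 14 alternatives each, none of the 9 genes changed the sign of its log2 fold change. The range was 1.26 to 1.44 for LAMB3, 0.74 to 0.91 for LAMA3, -1.20 to -1.01 for LAMB1, 1.01 to 1.20 for PLEC, 1.01 to 1.23 for COL17A1, 0.65 to 0.83 for CD151, 0.10 to 0.28 for LAMC1, 0.04 to 0.24 for DST and -0.24 to -0.07 for LAMA5. The number of the 9 genes called lower was 1 with DESeq2 size factors and 1 with the DESeq2 Wald test, and 1 to 2 with single libraries left out. LAMA5 was the gene that lost its call. For plakins and keratins the number called lower was 0 with DESeq2 size factors and 0 with the Wald test, and 0 to 1 with single libraries left out, EVPL being the gene concerned. When genes had to reach 1 CPM in 3 libraries, 2 basement membrane genes were called higher in place of 4. With single libraries left out, 2 to 3 processing enzymes were called lower and 3 to 4 higher. For laminin receptors and tetraspanins the number called higher was then 9 to 10. The cause was not tested for any of these. With the replicate number as a block, 13503 genes were called against 13957, and the 7 higher and 2 lower calls among the 9 genes were the same in number. Same-numbered libraries correlated by -0.255, 0.001 and 0 in their deviations from the group means (replicates 1, 2 and 3), so the numbers gave no sign of pairing. Differently numbered libraries correlated by -0.411 to 0.399. The highest were DOX-negative 2 with DOX-positive 1 (0.399) and DOX-negative 1 with DOX-positive 3 (0.332). Shared culture batches under other numbers were not tested. Lengths of RefSeq proteins were not run as an alternative length, since no protein table was at hand; longest transcripts were used instead, a choice made after seeing the data. Among the laminin chains, LAMA4 and LAMB4 had too few reads to be tested.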
